A study of Homo sapiens with 4 samples.

Results

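Antisense RNA genes are genes whose names end in -AS and a digit, after the gene on whose opposite strand they lie. The array used here carried 944 such names. Of these, 331 (35.1%) were well above background, by the scanner software's own flag, on all 4 arrays, and these 331 genes are described here. Where a name had several probes, the brightest probe on average stood for it. Over all 43310 gene names on the array, 18063 (41.7%) met the same condition, so the antisense genes were chosen by their measured signal and their detection is a description.

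The 4 samples were cultures of established human cancer cell lines, with 1 array each. HCT116 is a colorectal cancer line, grown here in McCoy's 5A medium, and A549 is a lung cancer line, grown in DMEM. Cells of each line were transfected by means of Dharmafect1, a lipid reagent, with either miR-891b or the negative control NC1. The dose and the time from transfection to RNA extraction are not given in the sources used here. Each array was hybridised with Cy3-labelled RNA made from 100 ng of total RNA, and every 60-base probe reads 1 strand. With 1 array a group, a difference between miR-891b and NC1 within a line has no replicate check.

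A natural antisense RNA is transcribed from the strand opposite to another gene, the sense gene. It may overlap the sense gene, or start beside its promoter and run away from it, in which case both are transcribed from 1 shared region. Such RNAs are mostly long non-coding RNAs of low abundance, and individual members are known to act on the chromatin, splicing or RNA stability of their neighbour, or to bind microRNAs. A microRNA lowers target RNAs by pairing through its seed, bases 2 to 8 of the mature strand.

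The first sequence below, from RefSeq (GRCh38.p14), is the transfected microRNA with its seed in capitals. It is followed by the probe of STK4-AS1, the one member whose probe holds the 7 letters that pair with the seed (AAGTTGC, in capitals), and by the probes of the members on which the results turn, in lower case. Probe sequences and hg19 positions come from the array files, and each is written 5′ to 3′ in the sense of the antisense RNA.
hsa-miR-891b: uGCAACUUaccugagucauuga
STK4-AS1: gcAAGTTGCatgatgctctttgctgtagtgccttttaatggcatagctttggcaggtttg
RNF157-AS1: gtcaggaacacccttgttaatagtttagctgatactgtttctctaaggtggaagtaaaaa
CARD8-AS1: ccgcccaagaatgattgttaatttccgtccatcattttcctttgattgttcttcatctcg
JMJD1C-AS1: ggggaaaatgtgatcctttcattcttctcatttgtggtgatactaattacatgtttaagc
PDCD4-AS1: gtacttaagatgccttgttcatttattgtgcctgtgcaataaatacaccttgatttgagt
OIP5-AS1: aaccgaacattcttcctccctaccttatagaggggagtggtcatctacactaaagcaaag
PAX8-AS1: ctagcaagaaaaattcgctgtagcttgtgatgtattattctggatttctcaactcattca
HOXB-AS1: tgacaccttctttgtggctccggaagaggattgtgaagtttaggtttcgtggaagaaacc

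These probes lie at chr20:43592675-43592734 on the minus strand for STK4-AS1, at chr17:74150652-74150711 on the plus strand for RNF157-AS1, and at chr19:48761360-48761419 on the plus strand for CARD8-AS1. The JMJD1C-AS1 probe is at chr10:65226248-65226307 on the plus strand and the PDCD4-AS1 probe at chr10:112629508-112629567 on the minus strand. Those of OIP5-AS1, PAX8-AS1 and HOXB-AS1 are all on the plus strand, at chr15:41577459-41577518, chr2:113998255-113998314 and chr17:46625766-46625825. All 8 genes are listed as long non-coding RNAs in RefSeq. Whether a probe falls in an exon shared by all isoforms was not determined, since no genome sequence was used here.

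The 7 letters AAGTTGC, searched on the probe's own strand, occur in 71 of the 18063 detected probes (0.393%). STK4-AS1 is antisense to STK4, a kinase of the Hippo pathway. It stood at -2.39 with NC1 and -2.98 with miR-891b in HCT116, and at -2.91 and -3.34 in A549. These levels, like all levels here, are log2 signals minus the 75th percentile of the gene probes of the same array, so 0 is that percentile itself. They are averages over a whole culture, in which fewer cells with an RNA and less of it per cell cannot be told apart. STK4-AS1 was therefore lower with miR-891b by 0.58 and 0.42 on the log2 scale, under the 2-fold line (a log2 difference of 1) in both lines. Over the 71 probes with these letters the median change was -0.063 in HCT116 and -0.51 in A549, beside -0.041 and -0.073 over all detected genes. The reverse complement, GCAACTT, occurs in 60 probes (0.332%), 3 of them of members, with median changes of 0.024 in HCT116 and 0.028 in A549. The difference between these sets of probes was not tested. A probe covers 60 bases of a longer RNA, so a probe without the letters says nothing of the rest of that RNA.

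Facts of the whole set of arrays bear on every value. The 75th percentile of the processed signal lay between 54.9 and 74.8, and 44.7% to 50.3% of 58201 gene probes were well above background. All 10 line markers examined (6 of A549, 4 of HCT116) stood on the side of their labelled line on the NC1 arrays. These markers were listed after an earlier look at these data, so they are not an independent check of the labels. Both HCT116 arrays were on slide 1 and both A549 arrays on slide 2, so line and slide cannot be told apart. Some areas of the arrays held stray signal, defined as places where at least 10% of the spots around, dim on the other arrays, were bright. They covered 10.5% of gene spots on the HCT116 miR-891b array and 0.0213% to 2.19% on the other arrays. Of the 331 members, 44 had their spot in such an area on some array, 29 of them on the HCT116 miR-891b array, and this is stated beside each named gene it touches.

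Most members gave modest signals, which limits the precision of their changes. The median processed signal was 44.2 over the 331 members and 145 over all detected genes. Of the 944 names, 416 were detected with NC1 and 397 with miR-891b in HCT116, and 458 and 447 in A549. On no array were 405 names detected, and 67, 96 and 45 were detected on 1, 2 and 3 arrays. The members just inside the detection limit were TRG-AS1, at -3.86 on the A549 miR-891b array, RAP2C-AS1, at -3.73 with NC1 in A549, and TUB-AS1, at -3.72 there. Just outside, and dim only on the HCT116 miR-891b array, were ROR1-AS1 at -2.78, TEX26-AS1 at -2.86 and CRYM-AS1 at -2.96. The spot of TEX26-AS1 lay in an area of stray signal on some array. The limit is set by each array's own background, so it falls at different levels on different arrays.

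Most members were antisense by position as well as by name. Their probes lay on the plus strand for 176 and on the minus strand for 155, and the sense gene was on the array for 324. In 322 of these 324 pairs the probes of antisense and sense gene lay on opposite strands. The exceptions were HNRNPU-AS1 and TUB-AS1, and RefSeq lists the former as the protein-coding gene HNRNPU. The median distance between the probes of a pair was 27797 bases, and no pair of probes overlapped. RefSeq holds 274 members under the same symbol and 56 under a newer one, of which 36 now end in -DT, the suffix for divergent transcripts. It classes 319 members as long non-coding RNA and 7 as protein-coding. Among the latter are MMP24-AS1, now MMP24OS, and TOPORS-AS1, now SMIM27.

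The software's own estimate of the error of a change, for 1 spot on each array, was 0.217 in the median member in HCT116 and 0.210 in A549. Probes printed on several spots, 276 in HCT116 and 287 in A549, gave a median SD of the change between spots of 0.061 and 0.071. Both describe the reading of an array, not the spread between cultures.

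In HCT116, miR-891b went with few large differences among the antisense genes. SLC7A11-AS1, RNF157-AS1 and TOB1-AS1 were 2-fold or more lower, which is 3 of 331 members (0.906%), beside 0.675% of all detected genes. ID2-AS1, EFCAB6-AS1, MEF2C-AS1, PRR7-AS1 and ZBED3-AS1 were 2-fold or more higher, 5 of 331 (1.51%) beside 0.952% of all genes. Taken either way, this was 2.42% of the members and 1.63% of all genes. The median change of the members was -0.076, with 203 below 0 and 128 above, and that of all genes was -0.041. Changes of members ranged from -1.30 to 2.53.

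ID2-AS1 had the highest change. Its sense gene encodes ID2, an inhibitor of basic helix-loop-helix transcription factors. ID2-AS1 measured -2.33 with NC1 and 0.20 with miR-891b in HCT116, and -2.44 and -2.43 in A549. The HCT116 miR-891b array thus stood alone, 2.53 above its control, while the other 3 arrays lay close together. A second probe of the gene was not above background in HCT116 and gives no change there. The sense gene ID2 had a change of -0.62 in HCT116 and -0.98 in A549.

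EFCAB6-AS1 was also brightest on that array, at -0.46 against -2.08 with NC1, a change of 1.62, and its spot there lay in an area of stray signal. The part of the stray signal in this value was not tested. PRR7-AS1, near the detection limit, stood at -2.97 with NC1 and -1.92 with miR-891b, and at -3.12 and -3.56 in A549. These 3 genes therefore had no counterpart past 2-fold in A549.

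MEF2C-AS1 and ZBED3-AS1 were higher in both lines by about the same amount. MEF2C encodes a transcription factor of muscle and neural crest, and ZBED3 an Axin-binding protein of the Wnt pathway. MEF2C-AS1 measured -2.10 and -1.04 in HCT116, and -1.95 and -0.98 in A549, changes of 1.07 and 0.97. For ZBED3-AS1 the levels were -0.48 and 0.57, then -0.56 and 0.42, changes of 1.05 and 0.98. In both genes the miR-891b arrays lay above both NC1 arrays. A pair of other ZBED3-AS1 probes detected on all 4 arrays did not share that pattern in HCT116, where they gave -0.63 and -0.34, and gave 0.42 and 1.42 in A549.

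Of the lower genes in HCT116, SLC7A11-AS1 lies opposite the gene of the cystine transporter xCT. It measured -0.74 with NC1 and -2.04 with miR-891b in HCT116, a change of -1.30, and 0.17 and 0.03 in A549. The sense gene SLC7A11 differed by less on the same arrays, -0.41 in HCT116 and -0.40 in A549. TOB1-AS1, opposite the gene of an antiproliferative protein, measured -0.32 and -1.33 in HCT116, and -0.24 and -0.75 in A549. Its other detected probe read changes of -0.19 in HCT116 and 0.11 in A549, against -1.01 and -0.51 for the brightest. The TOB1-AS1 result therefore rests on which probe is read, and both are printed here, with the brightest first.
TOB1-AS1: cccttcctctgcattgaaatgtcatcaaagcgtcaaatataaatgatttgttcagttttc
TOB1-AS1: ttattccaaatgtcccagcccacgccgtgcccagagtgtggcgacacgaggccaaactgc

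The first lies at chr17:48945609-48945668 and the other at chr17:48944519-48944578, both on the plus strand. With normexp background correction and quantile normalization, which draws dim probes toward the same level, none of the 8 genes passed 2-fold in HCT116.

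In A549 more antisense genes passed 2-fold, in both directions, than in HCT116. Of 331 members, 12 (3.63%) were 2-fold or more lower with miR-891b, beside 5.81% of all genes. Another 10 (3.02%) were 2-fold or more higher, beside 3.3%. Taken either way, this was 6.65% of the members and 9.11% of all genes. The median change was -0.117, with 197 members below 0 and 134 above, and that of all genes was -0.073. Changes ranged from -1.95 to 2.70. Under scaling to the median of detected probes the split was 12 lower and 18 higher, and the share of higher members, 5.44%, was then above the 3.88% of all genes. The share of lower members, 3.63% beside 5.03%, was still under it. It was above that of all genes with no filter on dim probes, at 7.84% of 944 antisense genes beside 7.11%, so neither order of shares held under all settings.

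JMJD1C-AS1 was the lowest. Its sense gene encodes a protein of the Jumonji family of histone demethylases. JMJD1C-AS1 measured -1.19 with NC1 and -3.14 with miR-891b in A549, a change of -1.95, and 0.01 and 0.24 in HCT116. It was near the detection limit on the A549 miR-891b array, and its sense gene differed by -0.27.

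SP2-AS1, opposite the gene of an Sp-family transcription factor, stood at -0.79 with NC1 and -2.13 with miR-891b in A549, and at -0.67 and -0.71 in HCT116. Its second detected probe read -0.77 in A549 where the brightest read -1.34. RORA-AS1, opposite the gene of a nuclear receptor of the circadian clock, stood at -1.27 and -2.60 in A549, and at -1.86 and -1.93 in HCT116. A second detected RORA-AS1 probe read -1.96 in A549 where the brightest read -1.33. In both genes the A549 miR-891b array held the lowest level of the 4.

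PXN-AS1, opposite the gene of the focal adhesion protein paxillin, measured 0.19 and -1.13 in A549 and 0.03 and -0.22 in HCT116. SOX9-AS1, opposite the gene of a transcription factor of cartilage and gut epithelium, measured -2.23 and -3.52 in A549, and 0.56 and 0.39 in HCT116. RGMB-AS1, opposite the gene of a co-receptor for bone morphogenetic proteins, measured -0.19 and -1.44 in A549, and -1.32 and -1.85 in HCT116. Their A549 changes were -1.32, -1.29 and -1.25, and those in HCT116 were -0.25, -0.17 and -0.53. ZEB1-AS1, opposite the gene of a repressor that drives epithelial-mesenchymal transition, gave -1.21 in A549 and -0.47 in HCT116, where its spot on the miR-891b array lay in an area of stray signal. A further 4 members, named after their values were seen, passed 2-fold lower: NDUFA6-AS1 (-1.20), NR2F2-AS1 (-1.16, in an area of stray signal on the miR-891b array), FBXL19-AS1 (-1.10) and ZBED5-AS1 (-1.08).

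Among the higher genes in A549, CARD8-AS1, ZFPM2-AS1 and ARHGAP5-AS1 were the ones, of the members named by rule, that stayed past 2-fold under all 5 scalings tried. CARD8 encodes an inflammasome sensor, ZFPM2 a cofactor of GATA transcription factors, and ARHGAP5 a GTPase-activating protein. CARD8-AS1 measured -1.18 with NC1 and 0.74 with miR-891b in A549, and -0.43 and -0.11 in HCT116. Its A549 change of 1.92 ranged from 1.02 to 1.98 over the scalings, and the sense gene CARD8 gave 0.38. ZFPM2-AS1 measured 0.82 and 2.64 in A549, and 2.52 and 3.11 in HCT116. Its second detected probe gave 1.01 in A549 and 0.42 in HCT116, where the brightest gave 1.83 and 0.59, so both were past 2-fold in A549. ARHGAP5-AS1 measured 0.37 and 1.71 in A549, a change of 1.34, while its levels in HCT116 were -0.55 and -0.61.

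VIM-AS1 lies opposite the gene of vimentin, the intermediate filament of mesenchymal cells. It measured -0.58 and 0.78 in A549, a change of 1.35, and -1.82 and -1.47 in HCT116. A second VIM-AS1 probe, detected on 3 arrays, gave -0.62 in A549, so the probes of this gene went in opposite directions. VIM itself gave -0.50 in A549 and 0.66 in HCT116. ZC3H18-AS1 went from -0.70 to 0.61 in A549 and stood at -1.33 and -1.34 in HCT116.

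TAPT1-AS1 had the highest change in A549, from -1.98 to 0.72, but its spot on the A549 miR-891b array lay in an area of stray signal. Of its other probes, one detected on both A549 arrays gave 0.02, and another gave 0.31. For ALOX12-AS1, with a change of 1.5, the stray area was on the HCT116 miR-891b array, and a second probe, detected on all 4 arrays, gave -0.0073 in A549. PAX8-AS1, with 1.20, lay in such an area on that array too, and its other probe detected on all 4 arrays gave 0.98. Leaving out members in areas of stray signal left 10 lower and 7 higher of 287 in A549, and 3 lower and 4 higher in HCT116.

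**Figure D1:**
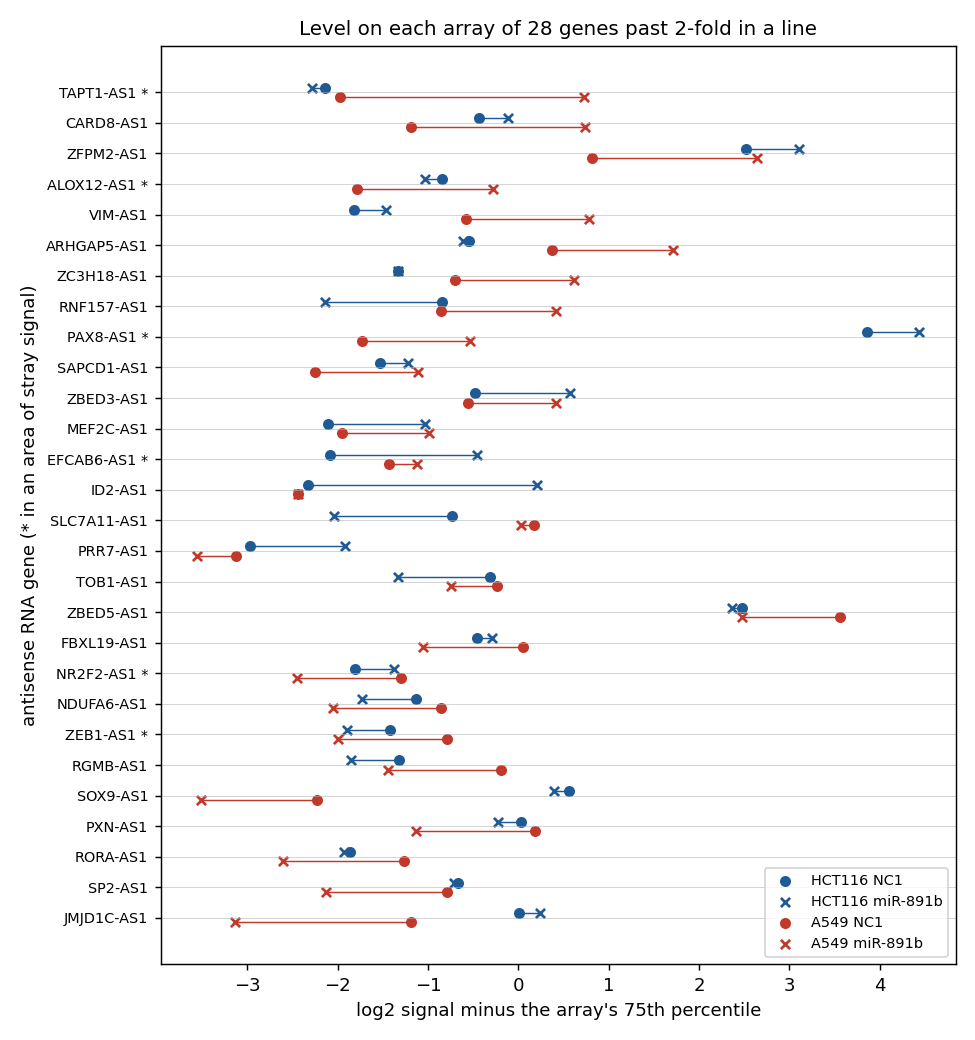
Level on every array of 28 of the 29 antisense genes past 2-fold in a line, on the x axis as log2 signal minus the array's 75th percentile; circles are NC1, crosses miR-891b, blue HCT116 and red A549, with a line joining the 2 arrays of a cell line. Levels can be compared within a gene only; ID2-AS1 stands apart on the HCT116 miR-891b array, JMJD1C-AS1 on the A549 miR-891b array, and ZBED3-AS1 and MEF2C-AS1 are higher with miR-891b in both lines.

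Split by mean signal, the dimmer genes held more of those past 2-fold. In the dimmer 165 members, 8 were lower and 6 higher in A549, and 3 and 4 in HCT116. In the brighter 166, 4 were lower and 4 higher in A549, and 0 and 1 in HCT116. With normexp and quantile normalization, 0 members were lower and 3 higher in A549.

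No antisense gene passed 2-fold on the same side in HCT116 and A549. Over all genes, 0.0886% were lower and 0.161% higher in both. A single member, RNF157-AS1, was past 2-fold in opposite directions, as were 0.083% of all genes. Its sense gene encodes a RING-type ubiquitin ligase. RNF157-AS1 stood at -0.85 with NC1 in HCT116 and -0.86 with NC1 in A549, and with miR-891b at -2.14 in HCT116 and 0.42 in A549. Level on the control arrays, it was thus 1.30 lower in one line and 1.27 higher in the other. Its second probe was above background only on the A549 miR-891b array and gives no change in HCT116. PDCD4-AS1 came next to this pattern, at -0.33 and -1.12 in HCT116 and 0.31 and 1.30 in A549. PDCD4 encodes an inhibitor of translation, and its own values were -0.41 in HCT116 and 1.21 in A549. The second detected PDCD4-AS1 probe also gave -0.41 and 0.54, so both probes and the sense gene were below 0 in HCT116 and above 0 in A549.

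The changes of the 331 members in both lines had the same sign in 183 (55.3%), 126 of them below 0 and 57 above. Over all detected genes the share was 54.9%. Across members the Pearson correlation of the changes was 0.154 and the Spearman correlation 0.136, beside 0.135 and 0.128 across all genes. These are correlations across genes on the same 4 arrays and describe those arrays. Share and correlations thus lay close to those of all genes.

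**Figure D2:**
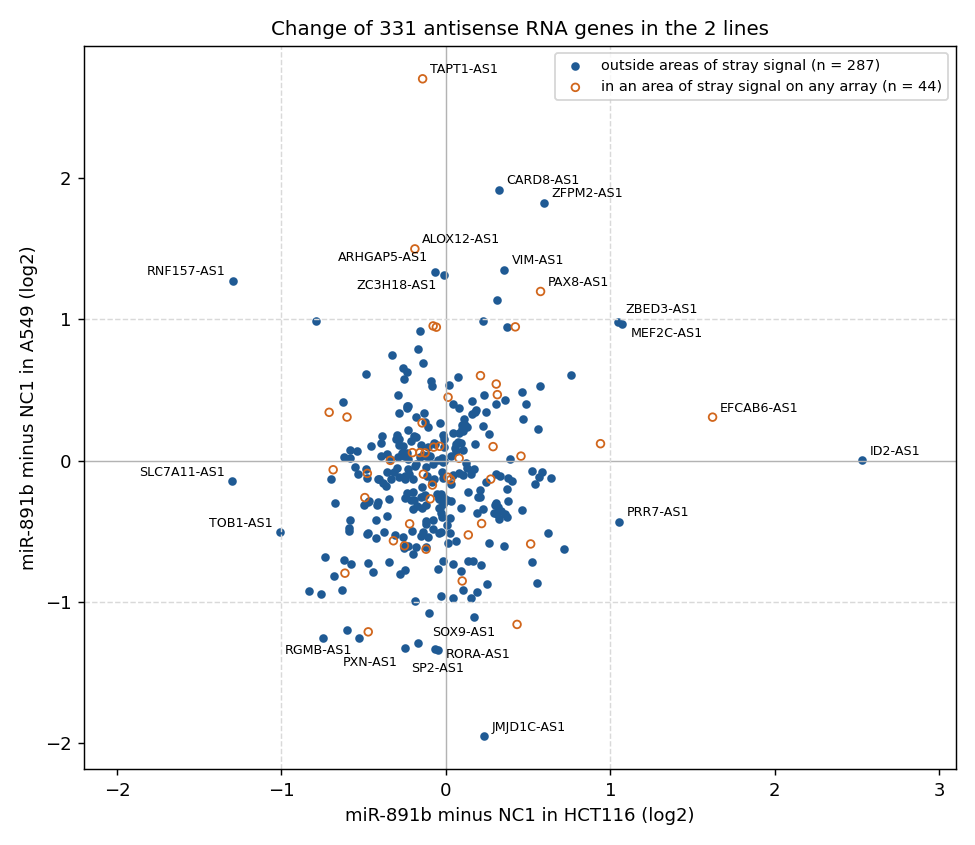
Change of each of the 331 antisense genes with miR-891b in HCT116 (x axis) and A549 (y axis), log2, with open circles for the 44 genes in an area of stray signal and dashed lines at 2-fold. RNF157-AS1 alone lies past the dashed lines in opposite directions, and no gene lies past both in the same direction.

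The lines can be joined in 1 test, with the line as a covariate and 1 residual degree of freedom (limma, Benjamini-Hochberg over 18063 genes). It called 0 genes at an adjusted p of 0.05, which is 0% of all genes and 0 of 331 members. At an unadjusted p under 0.05 there were 26 members (7.85%), beside 5.99% of all genes. That order stayed with quantile normalization, at 8.46% beside 5.73%. It was reversed with normexp and quantile normalization, at 2.42% beside 4.89%, and with no filter on dim probes, at 4.53% beside 8.52%. MEF2C-AS1 and ZBED3-AS1, on the same side of 0 in both lines, each had a mean change of 1.02 (SE 0.22), and the smallest limma adjusted p of any member was 0.765. Missing the threshold in so small a design does not show that the values were alike.

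Antisense and sense gene were then set side by side. Of the 324 pairs, the sense gene was detected on all 4 arrays in 252, on none in 31 and on some in 41. In HCT116 the 252 pairs had changes of the same sign in 137 (54.4%), with a Pearson correlation across pairs of 0.0056 and a Spearman correlation of 0.0995. In A549 the numbers were 151 (59.9%), 0.250 and 0.247. No pair in either line had both genes past 2-fold on the same side. With a sense gene detected on all arrays, HCT116 had 5 members past 2-fold and A549 had 18, and the sense gene was short of 2-fold in 5 and 17 of these. Of the 249 distinct sense genes in the 252 pairs, 1.20% in HCT116 and 6.83% in A549 were past 2-fold at all. With shares this small, the lack of shared calls says little about the pairs.

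The sense genes of the lower antisense genes in A549 leaned the same way by small amounts. For the 11 pairs with the antisense gene 2-fold or more lower, the sense gene was below 0 in 10, with a median of -0.31 and a range from -0.52 to 0.02. Over all 252 pairs the sense median was -0.041. For the 7 pairs with the antisense gene 2-fold or more higher, the sense gene was above 0 in 4, from -1.13 to 0.82. The lone pair past 2-fold in opposite directions was SAPCD1-AS1, at 1.14, with SAPCD1 at -1.13. Their probes lie 1 base apart on opposite strands, so the array read opposite changes from the strands of 1 place. SAPCD1-AS1 measured -2.25 and -1.11 in A549, and -1.53 and -1.22 in HCT116, and its A549 change was 0.26 with normexp and quantile normalization.

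Pairs can also be taken by the sense gene. In A549, 11 sense genes of pairs were 2-fold or more lower, and their antisense genes had a median change of -0.31, with 8 below 0 and 3 above. One of them, OIP5, which encodes a centromere protein, was lower by a log2 change of -3.45 in A549, while OIP5-AS1 gave -0.87. OIP5-AS1, the conserved RNA also called Cyrano, measured 1.59 and 1.84 in HCT116 and 1.78 and 0.90 in A549. A second probe gave 0.24 in HCT116 and -0.95 in A549, so both probes read the same direction in each line.

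The 6 members whose sense gene was on a list of cell-cycle genes, out of 12 such names on the array, were all below 0 in A549 with a median of -0.53, and none was past 2-fold. In HCT116 their median was -0.092, with 4 below 0 and 2 above. TMPO-AS1 gave -0.93, beside -0.92 for TMPO, which encodes a protein of the nuclear lamina. PRC1-AS1 gave -0.34, while PRC1, which encodes a protein of the spindle midzone, gave -1.69. The PRC1-AS1 and PRC1 probes are 276 bases apart, on opposite strands. DDX11-AS1 gave -0.73 beside -0.60 for the helicase gene DDX11, and MCM3AP-AS1 -0.26 beside 0.04 for MCM3AP. OIP5 and PRC1 thus differed by more than their antisense genes, and TMPO, DDX11 and MCM3AP by less. SGOL1-AS1, opposite the gene of shugoshin, which guards the cohesin of centromeres, stayed level, from -1.29 to -1.25, while SGOL1 gave -2.00.

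The HCT116 pairs named next were picked by the size of the difference between antisense and sense change, so a contrast in them was set by that choice. Opposite signs were not particular to HCT116, as SAPCD1-AS1 and SAPCD1 in A549, above, show. ID2-AS1 and ID2, above, made the largest contrast in HCT116. GAS6, a ligand of receptor tyrosine kinases of the TAM family, was higher by 1.61 while GAS6-AS1 stood at 1.21 and 1.20. ZEB1 was higher by 1.19 while ZEB1-AS1 gave -0.47. MYLK-AS1 went from -0.02 to 0.70 while MYLK, the myosin light-chain kinase gene, gave -0.74.

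**Figure D3:**
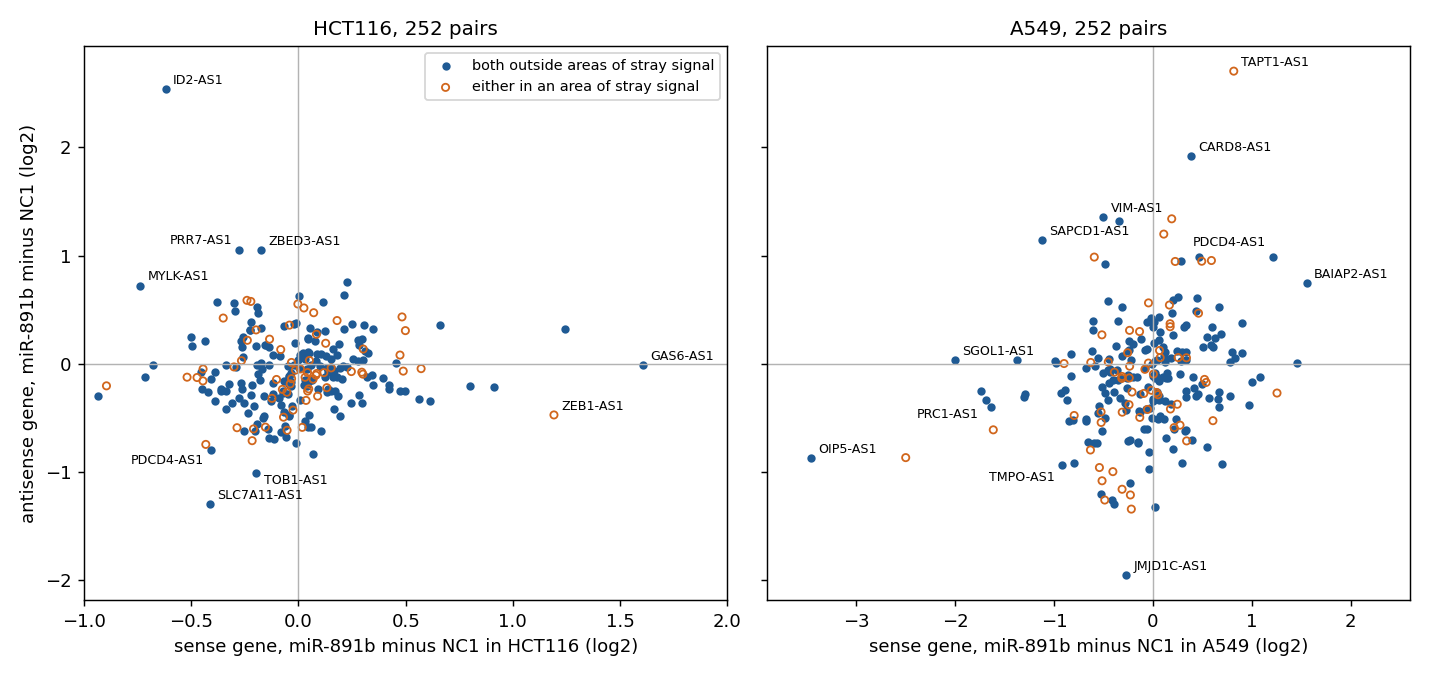
Change with miR-891b of the antisense gene (y axis) against its sense gene (x axis), log2, for the 252 pairs detected on all arrays, in HCT116 on the left and A549 on the right; open circles mark pairs with either spot in an area of stray signal. In A549 the pair of OIP5-AS1 and OIP5 lies far to the left at -3.45 and -0.87, and that of SAPCD1-AS1 lies at -1.13 and 1.14.

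Pairs that start beside each other were looked at apart. RefSeq start sites were at hand for both genes of 225 members, on opposite strands in 224, and in 72 the antisense start lay upstream within 1000 bases of the sense start. With the sense gene detected, 63 such pairs remained. Their changes in A549 had the same sign in 40 (63.5%), with a Pearson correlation of 0.309, beside 66 of 116 other pairs (56.9%) and 0.216. In HCT116 the same figures were 36 (57.1%) and -0.221, beside 62 (53.4%) and 0.035. The Spearman correlations were 0.262 beside 0.242 in A549, and 0.075 beside 0.070 in HCT116. For the 63 pairs in HCT116 the Pearson and Spearman correlations thus differed in sign. The difference between these sets of pairs was not tested.

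The control arrays show where the lines differ without miR-891b. On the NC1 arrays 46 members were 2-fold or more lower in A549 than in HCT116 and 38 higher, out of 331, beside 16.6% and 10.9% of all genes, or 27.5% either way. The median difference was -0.026 for the members and -0.10 for all genes. Of these 84 members, 54 were also past 2-fold in the same direction on the miR-891b arrays. Of 38 second probes of members past 2-fold, detected on all 4 arrays, 37 read the same direction as the first. Of the miR-891b changes past 2-fold, 9 of 11 second probes in A549 and 1 of 3 in HCT116 had the same sign as the first.

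PAX8-AS1 differed most. PAX8 is a transcription factor of thyroid and kidney, also active in some epithelial cancers. PAX8-AS1 measured 3.86 and 4.44 in HCT116 and -1.74 and -0.54 in A549, a difference between control arrays of -5.60, and PAX8 itself differed by -2.80. A second detected probe of PAX8-AS1 gave -3.19. Also lower in A549 were DPP9-AS1 (-3.75), FAM83H-AS1 (-3.68), RBM26-AS1 (-3.39), GATA2-AS1 (-3.08) and SOX9-AS1 (-2.79). Their sense genes differed by -0.20, -1.67, -0.64, -2.28 and -1.11. In all 6 pairs the antisense gene had the larger difference, and these pairs were picked by that difference.

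Higher in A549 were HOXB-AS1 (3.20), HAS2-AS1 (2.91), RBPMS-AS1 (2.83), RAB6C-AS1 (2.59), SUCLG2-AS1 (1.99) and ITFG1-AS1 (1.84), with the spots of RBPMS-AS1 and RAB6C-AS1 in areas of stray signal on an array. HAS2, the gene of a hyaluronan synthase, was well above background in A549 only, and RBPMS, that of an RNA-binding protein, was higher in A549 by 2.72, so both lay on the same side as their antisense genes. RAB6C differed by -0.08, SUCLG2 by 0.47 and ITFG1 by 0.46.

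HOXB-AS1 belongs to the HOX clusters, whose genes keep the positional identity of a tissue. It measured -0.75 and -0.65 in HCT116 and 2.45 and 2.35 in A549, and its second probe gave a difference of 3.11. Of 8 antisense names from HOX clusters on the array 4 were members. HOXB-AS3 differed by 1.23, HOXC-AS3 by 1.38 and HOXC-AS1 by -0.74 between the lines. None of the 4 was past 2-fold with miR-891b in HCT116 or in A549, where their changes ran from -0.11 to 0.30 and from -0.54 to 0.24. In each of the 4 the line difference was larger than either change with miR-891b.

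Across the 252 pairs the line difference had the same sign in antisense and sense gene in 157 (62.3%), with a Pearson correlation of 0.263 and a Spearman correlation of 0.288. Both were 2-fold or more lower in A549 in 10 pairs, both higher in 4, and the genes were past 2-fold in opposite directions in 6. In MYLK-AS1 the difference was -1.08 where MYLK had 3.45, and in EPB41L4A-AS1 -1.07 where EPB41L4A had 3.29. VIM, higher in A549 by 7.28, had an antisense gene higher by 1.25. Among the 63 pairs with starts within 1000 bases the same sign was seen in 42 (66.7%), beside 73 of 116 others (62.9%).

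**Figure D4:**
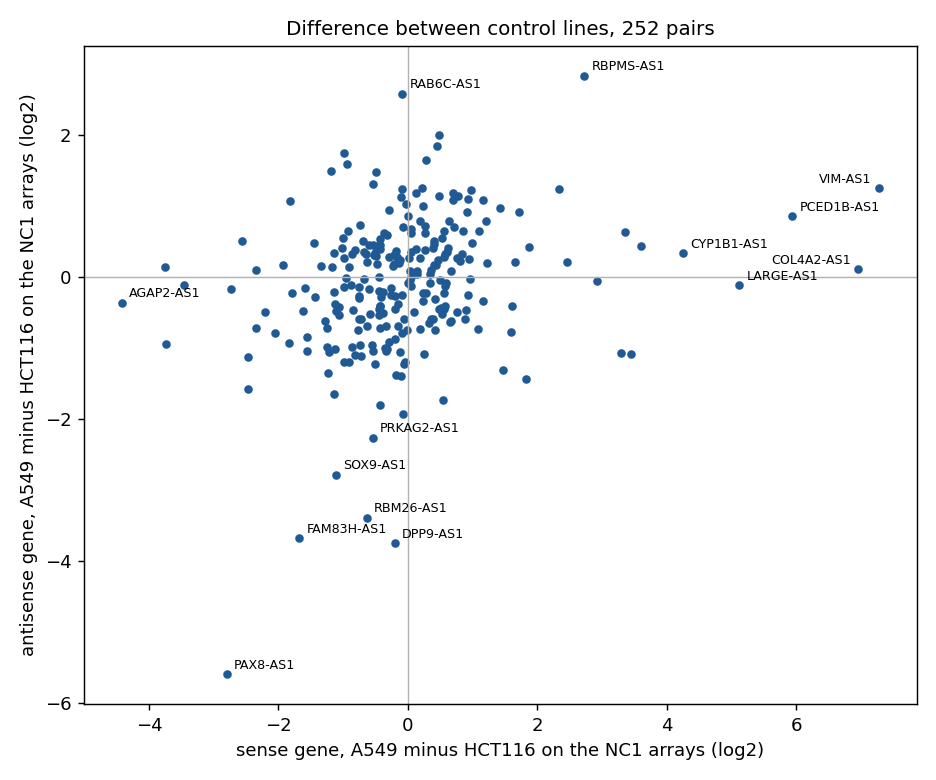
Difference between the control arrays, A549 minus HCT116 (log2), of the antisense gene (y axis) against its sense gene (x axis) for 252 pairs. PAX8-AS1 lies lowest at -5.60 with PAX8 at -2.80, and VIM-AS1 lies far right, at 1.25 with VIM at 7.28.

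Of 32 antisense RNAs often studied, 30 were on the array and 21 were members. In A549, ZEB1-AS1 alone of these was past 2-fold lower and none was past 2-fold higher, with a median of -0.26, and in HCT116 none was past 2-fold, with a median of -0.013. MAPKAPK5-AS1 stood at 4.41 and 4.52 in HCT116 and at 4.77 and 5.07 in A549. FGD5-AS1 stood at 3.71 and 3.68, then at 4.74 and 4.76. These bright RNAs differed by at most 0.30 between miR-891b and NC1. Of 33 antisense names opposite zinc finger genes, taken as sense names starting with ZNF, ZSCAN, ZKSCAN, ZFP, ZBTB or ZEB, 13 were members. Sense genes with other names, such as ZBED3, ZBED5 and ZC3H18, were outside this list. In A549 ZEB1-AS1 was lower and ZFPM2-AS1 higher past 2-fold, each 7.69% of the 13, beside 5.81% and 3.3% of all genes. ZBTB20-AS1 stood at 4.62 and 4.67 in HCT116 and 4.62 and 4.51 in A549, level on all arrays. The median change of the 13 was -0.038 in HCT116 and 0.029 in A549.

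Long intergenic RNAs (names starting with LINC, 228 detected) serve as another class of non-coding genes. Of these, 12 (5.26%) were 2-fold or more lower and 4 (1.75%) higher in A549, and 1 (0.439%) and 2 (0.877%) in HCT116. Protein-coding genes, 12337 detected, had 6.07% lower and 3.89% higher in A549, and 0.673% and 0.657% in HCT116. The antisense genes, at 3.63% lower and 3.02% higher in A549, lay under the protein-coding genes on both sides. In HCT116 the order was the opposite, with 0.906% of the antisense genes lower and 1.51% higher, which is 3 and 5 genes. The difference between these classes was not tested.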

How the data were processed

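RNA of both lines was measured on 4 Agilent 1-colour arrays, grouped by the titles in the labels, with 1 array a group. Per the file headers, Feature Extraction 11.5.1.1 read the scans and probe positions are on hg19. The deposited scanner files give each spot's intensity, background-subtracted and not scaled between arrays. The authors' deposited table of log2 values has no stated making. It equalled the log2 processed signal minus each array's 75th percentile to within 0.0116 for the 331 members, and was used as an alternative.

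Outlier and control spots were left out, spots of a probe were averaged as log2 processed signal, and the 75th percentile over gene probes was subtracted. Detection is the software's mark of a signal well above background. A change of 2-fold or more was counted, without a test, since each group has 1 array. The additive model (limma 3.58.1, R 4.3.3) took all arrays, with the line as a term. In data simulated from the model's own fitted spread, it called 1 of 40 planted 2-fold changes and 28 of 40 planted 4-fold changes. False calls among the unchanged genes numbered 7. Python 3.11.15 (numpy 2.4.6, pandas 2.3.3) gave the rest. Names were matched to RefSeq (GRCh38.p14), with 1 of 331 not found.

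The members, the gene lists and the rules were chosen with earlier results of these data known. Genes named are the 8 lowest and 8 highest changes of each line, the 6 lowest and 6 highest line differences, the 6 largest contrasts with the sense gene in each line, those past 2-fold in both lines, and the listed genes. Not all are printed, and some items are not reported here. Alternatives were normexp (offset 50) followed by quantile scaling, quantile scaling alone, scaling to the median, the authors' values, all probes of a gene averaged, no filter, other folds, and leaving out areas of stray signal (a window of 10 spots to each side). Leaving out members that RefSeq lists as protein-coding or that are probed on the sense gene's strand was added after seeing the data.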

Additional observations from a re-analysis of the deposited data

Results flagged for a closer look

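RNF157-AS1 was looked at again because it was past 2-fold in opposite directions in the lines, with a change of -1.30 in HCT116 and 1.27 in A549. Both miR-891b arrays lay away from the NC1 arrays, which were level with each other, and neither spot of the gene lay in an area of stray signal. With 1 array a group, this contrast between HCT116 and A549 was not tested.

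Outside the 331 members, 2 antisense genes were well above background on both miR-891b arrays and on neither NC1 array, CACNA1C-AS1 and HEXA-AS1. Both had a spot in an area of stray signal. CACNA1C-AS1 measured -3.83 and -1.86 in HCT116 and -3.86 and -3.46 in A549, and HEXA-AS1 measured -4.46 and -1.45, then -3.85 and -3.32. The reverse, detection on both NC1 arrays and neither miR-891b array, was seen in 6 antisense genes, all outside such areas. Among them, ADD3-AS1 measured -3.20 with NC1 and -3.27 with miR-891b in HCT116, CDKN2A-AS1 -2.58 and -4.27, and GRM7-AS3 -3.08 and -3.51. NCOA7-AS1 measured -2.80 and -4.75 there, and PDZRN3-AS1 was higher with miR-891b, at -3.01 against -3.22. In A549 each of these named genes was lower with miR-891b. Crossing the detection limit was thus not always a fall. Detection with miR-891b only was seen in 2.44% of all gene names in HCT116 and 2.49% in A549, beside 2.86% and 3.07% of the antisense names. With NC1 only, it was seen in 3.57% and 2.33% of all names, beside 4.87% and 4.24%. The share of all gene names with either pattern in both lines at once was not counted. The counts of 2 and 6 are therefore not read as a trait of antisense genes. The genes named were chosen with their values in view.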

How the results depend on the processing

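Of 95 counts and medians recomputed under alternatives, 63 stayed within 1.5 times or within the spread of the main value and 32 moved. The median change in HCT116 changed sign, from -0.076 over the 331 members to 0.21 over the 944 names with no filter on dim probes. The median over all gene names under that setting was not taken, so this shift cannot be called one of antisense genes in particular. The dimmest detected level was -3.55 on the HCT116 NC1 array and -3.14 on the HCT116 miR-891b array. Same-sign pairs under that setting, given below, hold undetected names too. Counts of members are given here with the share of all genes past the same fold under the same setting, lower before higher. Under normexp with quantile normalization there were 0 and 0 in HCT116 (all genes 0.0498% and 0.111%), 0 and 3 in A549 (2.28% and 1.58%) with a median of -0.028, and 13 and 8 between the lines on the control arrays (7.56% and 6.19%). Quantile normalization alone left 3 higher in HCT116 (0.814%), and median scaling gave 18 higher in A549 (3.88%). With no filter on dim probes there were, of 944, 39 and 65 in HCT116 (3.31% and 6.44%), with a median of 0.21, and 74 and 68 in A549 (7.11% and 6.77%), with a median of -0.026. The line comparison then gave 149 and 127 (15.1% and 12.2%), same-sign pairs numbered 525 in HCT116 and 490 in A549 of 923, and the additive model called 6 of 43310 genes, none a member. At 1.5-fold the counts were 23 and 12 in HCT116 (5.14% and 3.39%), 53 and 28 in A549 (15.8% and 9.64%), and 89 and 75 between lines (29% and 19.9%). At 3-fold they were 0 and 2 in HCT116 (0.0554% and 0.277%), 1 and 3 in A549 (1.61% and 0.764%), and 16 and 10 between lines (7.5% and 4.82%). Of 55 named differences past 2-fold, 0 changed sign over the scalings and 40 dropped under 2-fold under at least one. The cause was not tested. The additive model, which pairs miR-891b with NC1 within a line, was the one paired fit, and replicate numbers pair nothing further, since each group has 1 array. Low signal over background limits the dim members most.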

Other observations

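Some antisense genes outside the 331 were detected in one line only, which gives a lower bound for the line difference, set against the dimmest detected signal of the other line's array or the gene's own signal there, whichever was higher. Each bound is given for the NC1 arrays and then for the miR-891b arrays, which gave the lower one in every gene named here. The genes named here were chosen with their values in view. Well above background on both A549 arrays and neither HCT116 array were 59 of 944 antisense genes (6.25%), beside 5.09% of all 43310 gene names on the array. By the NC1 arrays 26 of them, 2.75% of the 944, were at least 2-fold higher in A549, beside 2.58% of all names. BMPR1B-AS1 was at least 53.0-fold higher on the NC1 arrays and at least 38.9-fold on the miR-891b arrays, and TBX2-AS1 at least 46.7-fold and 21.3-fold. HOXA-AS2 was at least 29.4-fold and 9.98-fold higher, TGFB2-AS1 at least 20.9-fold and 9.58-fold, and GATA3-AS1 at least 14.5-fold and 3.38-fold. Their sense genes encode a receptor for bone morphogenetic proteins, transcription factors of heart and limb and of T cells and breast, and a growth factor, and HOXA-AS2 belongs to a HOX cluster. In the other direction 22 antisense genes (2.33%, beside 1.5% of all names) were detected in HCT116 only, of which 20 (2.12%, beside 1.36%) were at least 2-fold higher there by the NC1 arrays. UNC5B-AS1, opposite the gene of a netrin receptor, was at least 94.5-fold higher on the NC1 arrays and at least 44.0-fold on the miR-891b arrays. ELFN1-AS1 was at least 45.2-fold and 32.1-fold higher, ZNF503-AS1 at least 22.2-fold and 19.3-fold, and MCF2L-AS1 at least 21.8-fold and 15.7-fold.

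Within A549, 40 antisense genes (4.24%, beside 2.33% of all names) were detected with NC1 and not with miR-891b, of which 8 (0.847%, beside 0.342%) were at least 2-fold lower, 2 of them with a spot in an area of stray signal on some array. CELF2-AS2 was lower with miR-891b by at least 4.34-fold and PCNA-AS1, opposite the gene of the DNA polymerase clamp, at least 2.89-fold. KLHL6-AS1 was at least 2.88-fold lower, and its probe holds the letters AAGTTGC (in capitals) at chr3:183269921-183269980 on the plus strand of hg19.
KLHL6-AS1: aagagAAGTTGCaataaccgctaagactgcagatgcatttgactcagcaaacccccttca

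Neither HCT116 array read KLHL6-AS1 well above background, and the one with miR-891b had stray signal around its spot. Besides STK4-AS1, the other antisense probe with these letters, that of SLC25A21-AS1, measured -2.95 with NC1 and -3.05 with miR-891b in A549, a change of -0.097. The probes with these letters thus ranged in A549 from a change of -0.097 to a fall of at least 2.88-fold.

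In the other direction 29 antisense genes (3.07%, beside 2.49% of all names) were detected with miR-891b only in A549, of which 8 (0.847%, beside 0.681%) were at least 2-fold higher. The highest bound, at least 42.6-fold for EGFR-AS1, belongs to the 1 of these 8 with stray signal around its spot, here on the bright array itself. ADIRF-AS1, outside such areas, was at least 4.17-fold higher. In HCT116, 27 (2.86%, beside 2.44%) were detected with miR-891b only and 17 of them (1.8%, beside 1.66%) were at least 2-fold higher, 10 in areas of stray signal. ATP11A-AS1 alone of 46 (4.87%, beside 3.57%) detected there with NC1 only was at least 2-fold lower, by at least 3.42-fold. That is 0.106% of the antisense genes, beside 0.238% of all names.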
